A study of Mus musculus with 15 samples.

Results

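The genes described here are 40 named mouse genes of cell proliferation, split into 2 G1 cyclins, 15 genes of S phase and 23 genes of G2 and mitosis. They were listed by name, not by their values, though earlier results of these data were known when they were chosen. They were read from an expression table of 15 mouse mammary tumors. A gene was taken from a transcript cluster (the array's probe group for a transcript) annotated with that gene alone, and from the brightest such cluster where there were several. That gave a value for 38 of the 40 genes, out of 22180 genes with such a cluster in all: both G1 cyclins, 14 S phase genes and 22 genes of G2 and mitosis. Ccnb1, which encodes cyclin B1, has no cluster named here. Ccne2, which encodes cyclin E2, lies only in a cluster annotated with several genes. Neither has a value below. Rrm2 has a second and dim cluster, and its brighter one is used.

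All 15 tumors came from ErbB2KI mice and differed in the label for the beta-catenin gene Ctnnb1. The HOM group is 5 tumors labelled Ctnnb1 fl/fl, the HET group is 5 tumors labelled Ctnnb1 fl/wt, and the WT group is 5 tumors labelled Ctnnb1 wt/wt. The series' design places the deletion in the mammary epithelium. No source used here names the Cre driver, the animals' ages or whether each tumor came from its own mouse. The p-values therefore reflect variation among the tumors alone. Tumors were taken at end burden and flash frozen, and total RNA of the whole tumor was measured, stroma included. With such bulk RNA, fewer cycling cells and less cell cycle RNA per cell cannot be told apart. Tumor numbers 1 to 5 within a genotype follow the order of deposit and are names only.

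Values are log2 array signals, on which a difference of 1 is a doubling. A cluster's brightness also depends on its probes, so levels are compared between tumors and never between genes. All 38 measured genes were above the median of the array on all 15 arrays. Ctnnb1 itself averaged 11.48 ± 0.33 in HOM tumors, 11.50 ± 0.19 in HET tumors and 11.84 ± 0.39 in WT tumors (SD, n = 5 each). HOM 5, at 12.01, and WT 5, at 11.22, went against their labels, so results are also given without this pair. Probes outside the floxed part would not report the deletion, and the cluster's probe positions were not used here. The mean of 20 epithelial markers, all of them tested, ranged from 9.86 to 10.79 in HOM tumors, from 7.52 to 10.88 in HET tumors and from 9.88 to 10.72 in WT tumors. HET 1 held the value of 7.52 and also the highest mean of B and plasma cell markers, at 9.79. HET 3 held the highest mean of skeletal muscle markers, at 11.36, with the other 14 tumors at or below 6.84. Results are therefore also given without HET 1 and HET 3.

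A dividing cell makes D-type cyclins in G1, which with CDK4 and CDK6 phosphorylate the retinoblastoma protein and so free E2F transcription factors. E2F factors switch on genes for DNA replication, and cyclin E with CDK2 drives entry into S phase. Later, B-MYB and FOXM1 act with the MuvB complex through a promoter element called CHR to switch on the genes of G2 and mitosis, many of them beside CCAAT boxes that bind NF-Y. Pathologists count Ki-67, the product of Mki67, to gauge proliferation in breast tumors. Ccnd1 is a known target of ErbB2 signalling and has been described as a target of beta-catenin.

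The shares of promoters with CHR and E2F letters differed between the 2 larger classes, while CCAAT boxes were frequent in both. RefSeq windows of 300 bases, from 250 before to 50 after the annotated start on GRCm38.p6, were found for 31 of the 40 genes. Of these, 13 are S phase genes and 18 are genes of G2 and mitosis. Of the 18 windows of G2 and mitosis genes, 12 held the CHR letters TTTGAA on either strand (66.7%), against 2 of 13 windows of S phase genes (15.4%) and 17.9% of all 32851 windows. Of the 18, 15 held a CCAAT box, searched as CCAAT on either strand (83.3%), against 9 of the 13 (69.2%) and 37.4% of all windows. The E2F element was searched as TTCCCGC on either strand. Its variant TTGGCGC was counted too. So was the variant TTCGCGC. The remaining variant counted was TTGCCGC. One or more of these E2F letters stood in 3 of the 18 (16.7%), against 7 of the 13 (53.8%) and 9.57% of all windows. The E2F letters TTGGCGC can overlap a CCAAT box read on the other strand, and both are then counted. A match is a run of letters and not a shown binding site, and the 18 include Ccnb1, which has no array value.

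Ccnb2 and Prc1 are shown as mitosis promoters with CHR and CCAAT letters, Cdk1 as one with all 3 motifs, Mcm6 as an S phase promoter with E2F letters, and Top2a and Cdc6 because their values depart from their classes below. Each runs 5′ to 3′ on the strand of the gene, and capitals mark the motif letters.
Ccnb2, chr9:70421505-70421804, minus strand: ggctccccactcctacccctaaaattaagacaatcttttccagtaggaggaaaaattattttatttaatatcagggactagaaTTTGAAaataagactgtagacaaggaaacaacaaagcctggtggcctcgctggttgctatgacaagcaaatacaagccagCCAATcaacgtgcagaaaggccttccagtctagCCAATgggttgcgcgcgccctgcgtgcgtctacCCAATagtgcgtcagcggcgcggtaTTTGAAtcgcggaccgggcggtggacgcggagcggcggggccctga
Prc1, chr7:80294201-80294500, plus strand: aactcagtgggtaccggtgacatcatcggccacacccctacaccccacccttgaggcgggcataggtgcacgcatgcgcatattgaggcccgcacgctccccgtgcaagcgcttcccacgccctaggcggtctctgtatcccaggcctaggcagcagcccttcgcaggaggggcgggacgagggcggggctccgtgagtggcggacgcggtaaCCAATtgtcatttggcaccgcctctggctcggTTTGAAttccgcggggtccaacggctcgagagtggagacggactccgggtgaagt
Cdk1, chr10:69352863-69353162, minus strand: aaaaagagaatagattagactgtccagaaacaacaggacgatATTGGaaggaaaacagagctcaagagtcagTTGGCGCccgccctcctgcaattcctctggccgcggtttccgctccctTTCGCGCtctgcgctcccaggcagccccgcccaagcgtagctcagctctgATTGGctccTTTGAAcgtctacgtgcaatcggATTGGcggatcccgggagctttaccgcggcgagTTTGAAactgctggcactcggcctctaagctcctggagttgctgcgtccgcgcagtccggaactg
Mcm6, chr1:128359656-128359955, minus strand: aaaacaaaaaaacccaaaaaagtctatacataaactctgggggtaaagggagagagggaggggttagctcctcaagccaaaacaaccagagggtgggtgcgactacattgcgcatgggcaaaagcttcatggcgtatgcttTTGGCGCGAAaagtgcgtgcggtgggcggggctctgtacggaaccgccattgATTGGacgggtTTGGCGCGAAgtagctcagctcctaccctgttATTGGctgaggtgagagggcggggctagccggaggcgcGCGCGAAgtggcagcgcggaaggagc
Top2a, chr11:99024140-99024439, minus strand: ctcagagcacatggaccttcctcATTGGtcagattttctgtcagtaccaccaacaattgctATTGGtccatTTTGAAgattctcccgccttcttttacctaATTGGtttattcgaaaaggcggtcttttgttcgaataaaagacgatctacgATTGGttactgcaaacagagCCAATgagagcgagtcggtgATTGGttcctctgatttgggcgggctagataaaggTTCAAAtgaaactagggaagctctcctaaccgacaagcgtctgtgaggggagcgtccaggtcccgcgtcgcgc
Cdc6, chr11:98907901-98908200, plus strand: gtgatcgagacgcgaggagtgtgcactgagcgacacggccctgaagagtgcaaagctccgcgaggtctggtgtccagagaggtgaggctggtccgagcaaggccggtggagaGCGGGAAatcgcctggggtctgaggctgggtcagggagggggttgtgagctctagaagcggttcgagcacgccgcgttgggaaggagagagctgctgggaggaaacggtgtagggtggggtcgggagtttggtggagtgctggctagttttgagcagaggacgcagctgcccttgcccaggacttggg
In Prc1 the CHR letters begin at position -5 and the CCAAT box at -37, counted from the annotated start. In Mcm6, E2F letters on both strands overlap in the run TTGGCGCGAA, which occurs at -109 and again at -46. Top2a held 6 CCAAT boxes and 2 CHR matches, while Cdc6 held 1 E2F match and neither of the other motifs.

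The genes of G2 and mitosis moved together from tumor to tumor, while their genotype means lay close to each other. The mean of the 22 genes was 8.81, 9.35, 9.59, 9.06 and 8.22 in HOM 1 to HOM 5, 9.26, 9.08, 9.77, 8.48 and 9.38 in HET 1 to HET 5, and 9.48, 9.46, 8.26, 9.41 and 8.79 in WT 1 to WT 5. HET 3 and HOM 3 were the highest, HOM 5 and WT 3 the lowest, and each genotype held high and low tumors. The highest tumor stood 1.55 above the lowest on the log2 scale, a 2.93-fold range. Genotype means were 9.0 ± 0.53 in HOM tumors, 9.19 ± 0.47 in HET tumors and 9.08 ± 0.54 in WT tumors (SD, n = 5 each). They differed by at most 0.19, against a spread within genotypes of 0.52.

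The 14 S phase genes followed a similar order of tumors over a narrower range. Their mean was 9.14, 9.26, 9.44, 9.08 and 8.48 in HOM 1 to HOM 5, 9.44, 9.06, 9.62, 8.68 and 9.41 in HET 1 to HET 5, and 9.36, 9.42, 8.60, 9.30 and 9.11 in WT 1 to WT 5. HET 3 was again the highest and HOM 5 again the lowest, 2.21-fold apart. Genotype means were 9.08 ± 0.36 in HOM tumors, 9.24 ± 0.37 in HET tumors and 9.16 ± 0.33 in WT tumors (SD, n = 5 each), which differed by at most 0.16 against a within-genotype spread of 0.36. Across the 15 tumors the 2 class means had a Pearson r of 0.96 and a Spearman rho of 0.88, and r was 0.92 without HOM 5 and WT 3. Both means come from the same arrays, so they share each tumor's RNA, its cell mixture and its array's normalization.

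**Figure D1:**
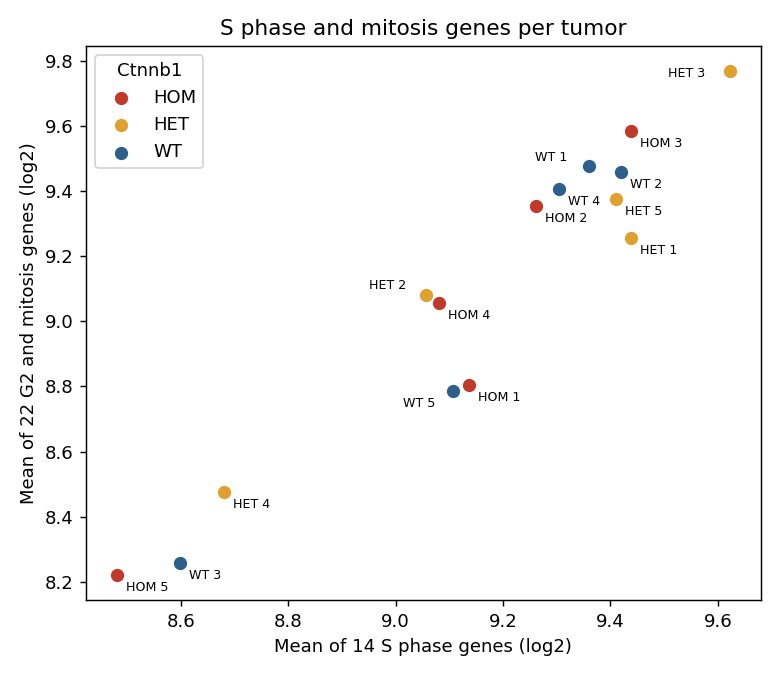
Mean log2 value of the 14 S phase genes (x axis) and of the 22 G2 and mitosis genes (y axis) in each of 15 tumors, colored by Ctnnb1 label. The tumors lie along a diagonal from HOM 5 and WT 3 at the low end to HET 3 at the high end, and the 3 genotypes are mixed along it.

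Single genes repeated that order. HET 3 was among the 3 highest tumors for 31 of the 36 S phase and mitosis genes, HOM 3 for 22 and WT 2 for 17. HOM 5 was among the 3 lowest for 34 of the 36, WT 3 for 32 and HET 4 for 27. HOM 2 was among the 3 highest for 2 genes and among the 3 lowest for none, and HOM 4 was among neither for any gene.

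**Figure D2:**
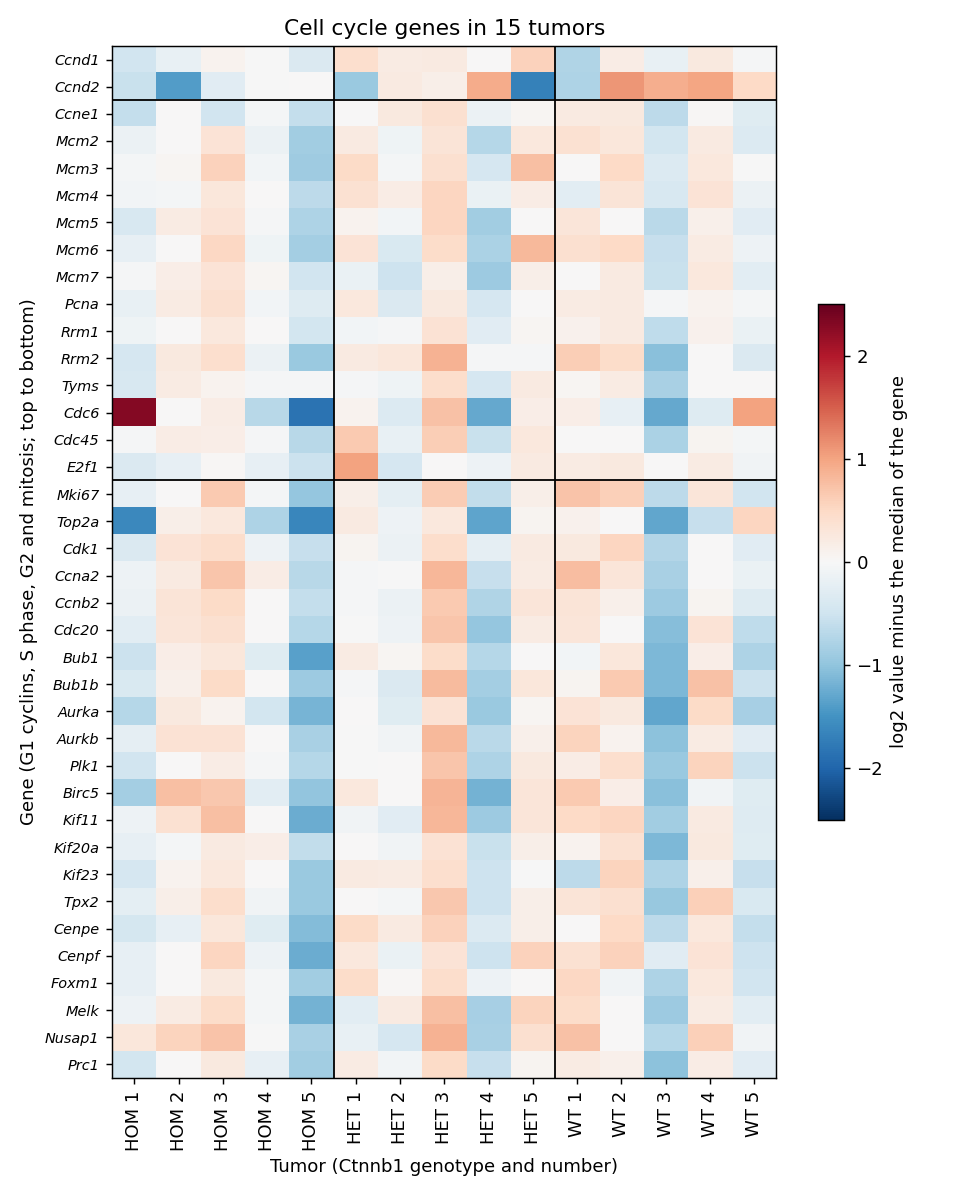
Log2 value of each of 38 genes (rows: G1 cyclins, S phase, G2 and mitosis from top to bottom) minus that gene's median over the 15 tumors (columns, grouped as HOM, HET and WT). The columns of HOM 5, HET 4 and WT 3 are blue for nearly all S phase and mitosis genes and HET 3 is red, the G1 cyclins do not follow, and Cdc6 and Top2a share these columns but stand off in HOM 1 and WT 5.

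Several lists of markers for cells other than the tumor epithelium ran against this order. The mean of 9 macrophage markers tested of 10 listed had an r of -0.67 with the mitosis mean over the 15 tumors, and that of 10 fibroblast markers, all tested, had -0.63. For pan-leukocyte markers r was -0.54, for endothelial markers -0.53, for T and NK cell markers -0.43, for B and plasma cell markers -0.20, for neutrophil markers -0.19 and for adipocyte markers -0.08. Skeletal muscle markers had 0.28 and epithelial markers 0.16. Macrophage marker means ranged from 8.46 to 10.04 in HOM tumors, from 8.74 to 10.30 in HET tumors and from 7.76 to 9.77 in WT tumors. Fibroblast marker means ranged from 8.11 to 10.40 in HOM tumors, from 6.82 to 11.67 in HET tumors and from 7.21 to 9.54 in WT tumors. HET 4, low for the mitosis genes, had the highest fibroblast mean, and HOM 5 had the next highest. These correlations describe the same arrays and normalization, and the part of the cell mixture in the tumor order was not tested.

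Among the genes of G2 and mitosis, Mki67 was 9.97, 10.17, 10.83, 10.12 and 9.20 in HOM 1 to HOM 5, 10.32, 9.92, 10.80, 9.55 and 10.33 in HET 1 to HET 5, and 10.88, 10.77, 9.52, 10.48 and 9.70 in WT 1 to WT 5. HOM 5 was lowest and WT 1 highest, a 3.20-fold range, and the 3 groups overlapped almost completely. Mki67 averaged 10.06 ± 0.58 in HOM tumors, 10.18 ± 0.47 in HET tumors and 10.27 ± 0.62 in WT tumors (SD, n = 5 each). Two-sided exact permutation tests gave p = 0.802 for HET minus WT (-0.08), p = 0.603 for HOM minus WT (-0.21) and p = 0.698 for HOM minus HET (-0.13). Over the 6 exact tests run, 3 on Mki67 and 3 on Ccnd1, each of these had an adjusted p of 0.802. The smallest p that 5 tumors against 5 allow is 0.00794.

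Cdk1, the kinase that drives entry into mitosis, was 10.22, 10.92, 11.01, 10.44 and 9.99 in HOM 1 to HOM 5, 10.64, 10.42, 11.01, 10.34 and 10.80 in HET 1 to HET 5, and 10.82, 11.10, 9.85, 10.57 and 10.29 in WT 1 to WT 5. Its lowest and highest tumors, WT 3 and WT 2, were both WT. Foxm1, the transcription factor of G2 and mitosis genes, was 7.67, 7.87, 8.13, 7.82 and 7.01 in HOM 1 to HOM 5, 8.34, 7.90, 8.32, 7.75 and 7.88 in HET 1 to HET 5, and 8.40, 7.78, 7.11, 8.14 and 7.40 in WT 1 to WT 5. HOM 5 and WT 3 were lowest, and HET tumors covered the narrowest span.

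Likeness to the rest of the class was highest for Prc1, which bundles microtubules of the central spindle, with r = 0.98 against the mean of the other 21 genes over 15 tumors. Tpx2, which activates Aurora A on the spindle, had 0.97 and Kif11, the kinesin that pushes spindle poles apart, had 0.96. These values were chosen after they were seen. The checkpoint and kinase genes Bub1, Bub1b, Aurka, Aurkb and Plk1 lay between 0.94 and 0.96. Ccna2, Ccnb2 and Cdc20, which encode cyclin A2, cyclin B2 and an activator of the anaphase-promoting complex, had 0.93, 0.95 and 0.95. Birc5, Kif20a, Melk, Nusap1, Cenpe, Cenpf and Foxm1 lay between 0.85 and 0.93. Kif23, a kinesin of cytokinesis, had 0.78 and Top2a, which untangles DNA before chromosomes separate, had 0.73, the lowest of the class. Ranges over the tumors were widest for Top2a, at 4.45-fold, and Kif11 followed at 4.18-fold. Cdk1 had the narrowest range of the class, at 2.38-fold.

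Other mitosis genes, from a list of 40 that does not overlap the 40 above, followed the same axis. Of 38 tested, 33 had an r above 0.8 with the mean of the 22 genes, and their median r was 0.91. Of all 14243 tested genes, 188 passed 0.8 (1.32%), and the median was 0.08. Dlgap5, Kif22 and Smc4, which act on the spindle and on chromosome condensation, had r of 0.98, 0.98 and 0.96, while Wee1, the kinase that restrains Cdk1, had 0.46. These genes were picked as the ends of the list after their values were seen.

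In S phase, the helicase genes Mcm2 to Mcm7 unwind DNA at replication forks. Mcm2 was 9.36, 9.51, 9.85, 9.37 and 8.64 in HOM 1 to HOM 5, 9.74, 9.41, 9.83, 8.79 and 9.78 in HET 1 to HET 5, and 9.89, 9.80, 9.05, 9.74 and 9.18 in WT 1 to WT 5. HOM 5, HET 4 and WT 3 were the lowest tumor of their genotype. The mean of the 6 subunits averaged 9.52 ± 0.42 in HOM tumors, 9.66 ± 0.44 in HET tumors and 9.62 ± 0.34 in WT tumors (SD, n = 5 each). Their likeness to the mean of the other 13 S phase genes ran from 0.79 for Mcm7 to 0.94 for Mcm2, with Mcm3, Mcm4, Mcm5 and Mcm6 between. Over the tumors the subunits ranged between 2.29-fold for Mcm4 and 3.12-fold for Mcm3 and Mcm6.

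Pcna, the sliding clamp of the DNA polymerases, had the narrowest range of all 38 genes, at 1.75-fold. It was 11.02, 11.41, 11.60, 11.14 and 10.89 in HOM 1 to HOM 5, 10.84 and 10.79 in HET 2 and HET 4 against 11.20 to 11.46 in the other HET tumors, and 11.16 to 11.43 in WT tumors. Rrm2, the small subunit of ribonucleotide reductase, was 8.46, 9.12, 9.29, 8.73 and 7.96 in HOM 1 to HOM 5, 9.11, 9.17, 9.74, 8.85 and 8.84 in HET 1 to HET 5, and 9.49, 9.35, 7.83, 8.88 and 8.52 in WT 1 to WT 5. Its range was 3.77-fold, against 1.99-fold for the large subunit gene Rrm1. WT 3 was lowest for both subunits and HET 3 highest. Tyms, which makes thymidylate, had a likeness of 0.69 and a range of 2.37-fold, and Cdc45 had 0.92 and 2.70-fold.

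Of the S phase genes, 3 were least like their class. These were Cdc6, E2f1 and Ccne1, with r of 0.46, 0.50 and 0.59 against the mean of the other 13. E2f1, the transcription factor that opens S phase, was 7.58, 7.75, 7.98, 7.74 and 7.42 in HOM 1 to HOM 5, 8.95, 7.53, 7.96, 7.81 and 8.18 in HET 1 to HET 5, and 8.15, 8.20, 7.95, 8.16 and 7.86 in WT 1 to WT 5. HET 1 stood alone at the top, and 4 of the 5 HOM tumors lay below every WT tumor. Ccne1, the cyclin E1 gene, was 7.45, 8.05, 7.57, 8.0 and 7.46 in HOM 1 to HOM 5, 8.05, 8.29, 8.45, 7.90 and 8.09 in HET 1 to HET 5, and 8.28, 8.29, 7.39, 8.08 and 7.75 in WT 1 to WT 5. HOM 3, which was second highest for the mitosis genes, was among the low tumors for Ccne1. Ccne1 was nearer to the mitosis mean (r = 0.71) than to its own class. So were Mcm2, Mcm4, Mcm5, Mcm7, Pcna, Rrm1, Rrm2 and Tyms, while Mcm3, Mcm6, Cdc6, Cdc45 and E2f1 were not. Some were near ties: Mcm2 had 0.945 with the mitosis mean and 0.940 with its class, Pcna 0.76 and 0.75. Mcm4 had 0.81 with both. The class mean averages fewer genes than the mitosis mean. Except for Cdc6 itself, it includes Cdc6, which stood off in HOM 1 and WT 5. The effect of both on these values was not tested. Rrm2, for example, had 0.89 with the mitosis mean and 0.78 with its own class.

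The G1 cyclins did not follow the axis of the other genes. Ccnd1 had an r of 0.37 with the mitosis mean and Ccnd2 had -0.33, over 15 tumors. Ccnd1 was 11.46, 11.75, 12.04, 11.94 and 11.58 in HOM 1 to HOM 5, 12.37, 12.14, 12.17, 11.94 and 12.53 in HET 1 to HET 5, and 11.20, 12.13, 11.75, 12.20 and 11.91 in WT 1 to WT 5. Among HOM tumors only HOM 3 lay above the lowest HET tumor, with HOM 4 just under it, while WT tumors spanned most of both groups. Ccnd2 was 9.24, 8.40, 9.51, 9.79 and 9.79 in HOM 1 to HOM 5, 8.85, 10.02, 9.93, 10.71 and 8.11 in HET 1 to HET 5, and 9.01, 10.89, 10.69, 10.78 and 10.29 in WT 1 to WT 5. WT 1 was low among WT tumors for both cyclins, and 4 of the 5 WT tumors lay above every HOM tumor for Ccnd2. Its range of 6.87-fold was the second widest of the 38 genes.

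**Figure D3:**
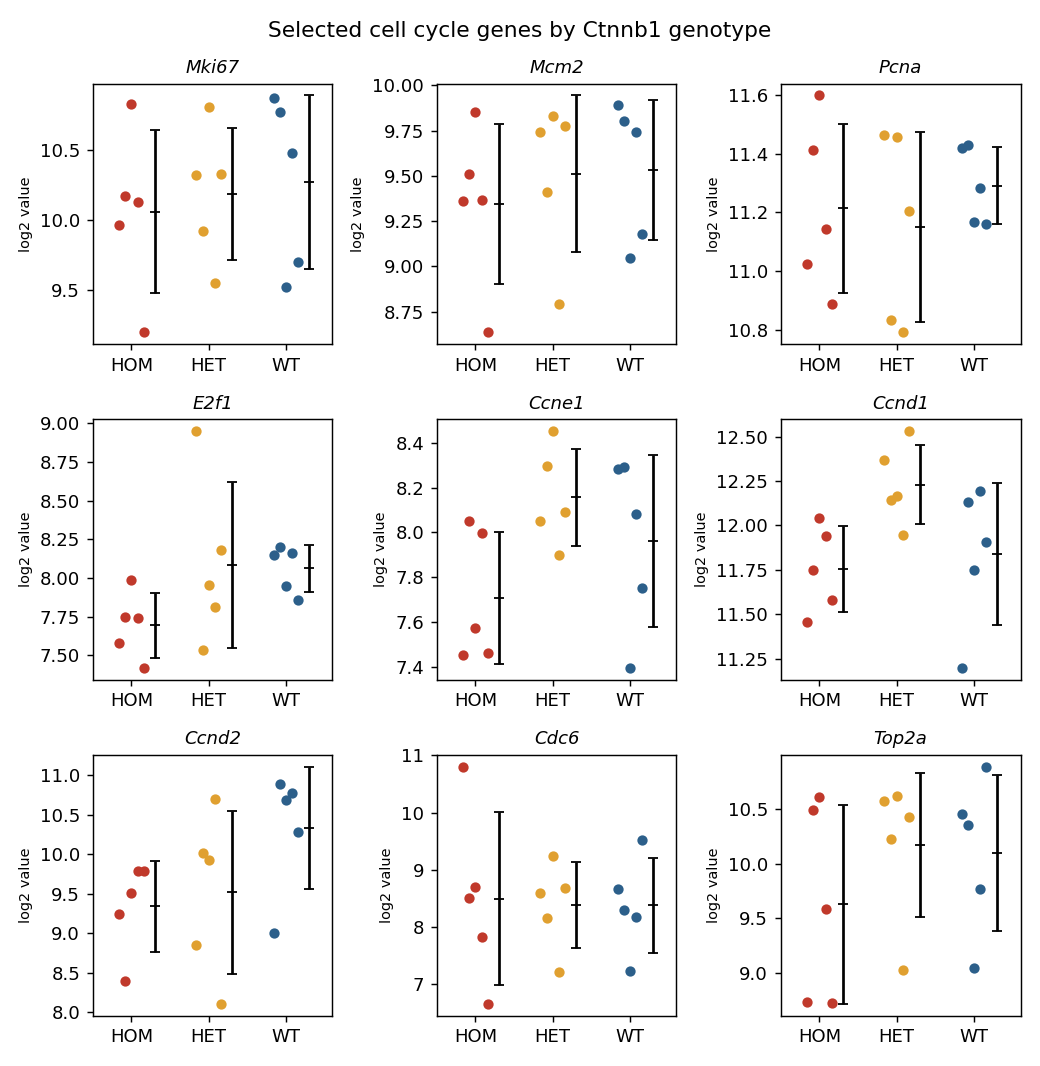
Log2 value of 9 genes in each tumor (points, one color per genotype, HOM, HET and WT from left to right), with the mean and SD of 5 tumors as a black bar to the right of the points. The groups overlap in all 9 panels, and single tumors stand off in Cdc6 (HOM 1), E2f1 (HET 1) and Ccnd2 (WT 1).

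Genotypes were compared with limma over all 14243 genes that passed the filter on dim genes, and the 3 comparisons share tumors pairwise. In HET tumors against WT tumors, none of the 38 genes passed an adjusted p of 0.05 (background 0.0140% of all tested genes), and none reached an unadjusted p of 0.05 (background 13.4%, of which 4.99% higher and 8.38% lower). None of them separated the 2 groups without overlap (background 1.58%, of which 0.534% higher and 1.05% lower). HET means were above WT means for 19 of 22 mitosis genes, with a median difference of 0.11, and for 10 of 14 S phase genes, with a median of 0.06. Of all 14243 tested genes, 6481 had a higher mean in HET tumors, and the median difference was -0.03. Mitosis and S phase genes moved together from tumor to tumor, so such counts, here and below, are not independent observations. Without HET 1 and HET 3 the medians were -0.11 for mitosis genes and -0.11 for S phase genes. With the leukocyte and fibroblast marker means as covariates they were 0.42 and 0.28.

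The 5 smallest p in that comparison were those of Ccnd1, Ccnd2, Mcm4, Cdc45 and Kif23. Ccnd1 averaged 12.23 ± 0.22 in HET tumors and 11.84 ± 0.40 in WT tumors (SD, n = 5 each), a difference of 0.39 with a 95% interval of -0.01 to 0.80. Its adjusted p was 0.378 by limma, and its two-sided exact permutation p was 0.0794, or 0.238 over the 6 tests. Erbb2, the driver gene, also differed between these groups, at 12.70 ± 0.23 in HET tumors and 11.11 ± 0.88 in WT tumors (SD, n = 5 each) without overlap. That difference was 1.59 with an unadjusted p of 0.0044 and a limma adjusted p of 0.224, and its part in the Ccnd1 values was not tested. Ccnd2 averaged 9.52 ± 1.03 in HET tumors and 10.33 ± 0.77 in WT tumors, a difference of -0.81 with an interval of -1.85 to 0.23 and a limma adjusted p of 0.460. Mcm4, Cdc45, which joins the MCM ring in the active helicase, and Kif23 differed by 0.26, 0.31 and 0.33, none of them past the test. Cdk1 differed by 0.12, Foxm1 by 0.27, Top2a by 0.07, Mcm2 by -0.02, Pcna by -0.14, Rrm2 by 0.33, E2f1 by 0.02 and Ccne1 by 0.20, with limma adjusted p between 0.649 and 0.980.

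In HOM tumors against WT tumors, none of the 38 genes passed an adjusted p of 0.05 (background 0%), none reached an unadjusted p of 0.05 (background 1.70%, of which 0.541% higher and 1.16% lower) and none separated the groups (background 0.281%). HOM means were below WT means for 15 of 22 mitosis genes (median difference -0.05) and 9 of 14 S phase genes (median -0.07). They were below for 7520 of all 14243 tested genes, with a median of -0.01. Without HOM 5 and WT 5 the medians were 0.08 and 0.03. The smallest p was that of Ccnd2, which averaged 9.34 ± 0.58 in HOM tumors and 10.33 ± 0.77 in WT tumors (SD, n = 5 each). The difference was -0.99, with an interval of -2.03 to 0.06 and a limma adjusted p of 1.0. E2f1 differed by -0.37, Ccne1 by -0.25, Top2a by -0.47 and Cenpf, a kinetochore protein gene, by -0.31, each with a limma adjusted p of 1.0. Top2a differed by -0.05 without HOM 5 and WT 5. Cdk1 differed by -0.01, Foxm1 by -0.07, Mcm2 by -0.19, Pcna by -0.08, Rrm2 by -0.10 and Ccnd1 by -0.08, also with a limma adjusted p of 1.0.

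In HOM tumors against HET tumors, none of the 38 genes passed an adjusted p of 0.05 (background 0%) and none separated the groups (background 1.03%, of which 0.611% higher and 0.414% lower). At an unadjusted p of 0.05, 2 of the 38 were lower in HOM tumors, Ccnd1 and Ccne1, beside 3.11% of all tested genes that were lower, 4.82% that were higher and 7.93% in either direction. HOM means were below HET means for 20 of 22 mitosis genes and 11 of 14 S phase genes, with a median difference of -0.19 in both classes. They were below for 6773 of all 14243 tested genes, with a median of 0.01. Without HOM 5 and WT 5 the medians were 0.02 for mitosis genes and -0.04 for S phase genes. Without HET 1 and HET 3 they were -0.0024 and 0.02. Other alternatives moved them away from 0. Apart from leaving out 1 tumor, all alternatives together gave -0.37 to 0.02 for mitosis genes and -0.27 to 0.02 for S phase genes.

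Ccnd1 averaged 11.75 ± 0.24 in HOM tumors and 12.23 ± 0.22 in HET tumors (SD, n = 5 each), a difference of -0.48 with a 95% interval of -0.88 to -0.07, or 1.39-fold lower. Its adjusted p was 0.587 by limma. Its two-sided exact permutation p was 0.0159, which became 0.0952 over the 6 tests. Ccnd1 was chosen for these tests with earlier results of these data known, and the adjustment over 6 tests does not cover that choice. Erbb2 averaged 11.53 ± 1.04 in HOM tumors and 12.70 ± 0.23 in HET tumors, a difference of -1.17 with a limma adjusted p of 0.587. Its part in the Ccnd1 values was not tested. Ccne1 averaged 7.71 ± 0.29 in HOM tumors and 8.16 ± 0.22 in HET tumors, a difference of -0.45 with an interval of -0.87 to -0.04 and a limma adjusted p of 0.594. Cenpe, a kinetochore motor, differed by -0.57, E2f1 by -0.39 and Mcm4 by -0.33, with limma adjusted p between 0.634 and 0.687. Top2a differed by -0.54, Cdk1 by -0.13, Foxm1 by -0.34, Mcm2 by -0.17, Pcna by 0.06, Rrm2 by -0.43 and Ccnd2 by -0.18, with limma adjusted p between 0.738 and 0.936.

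**Figure D4:**
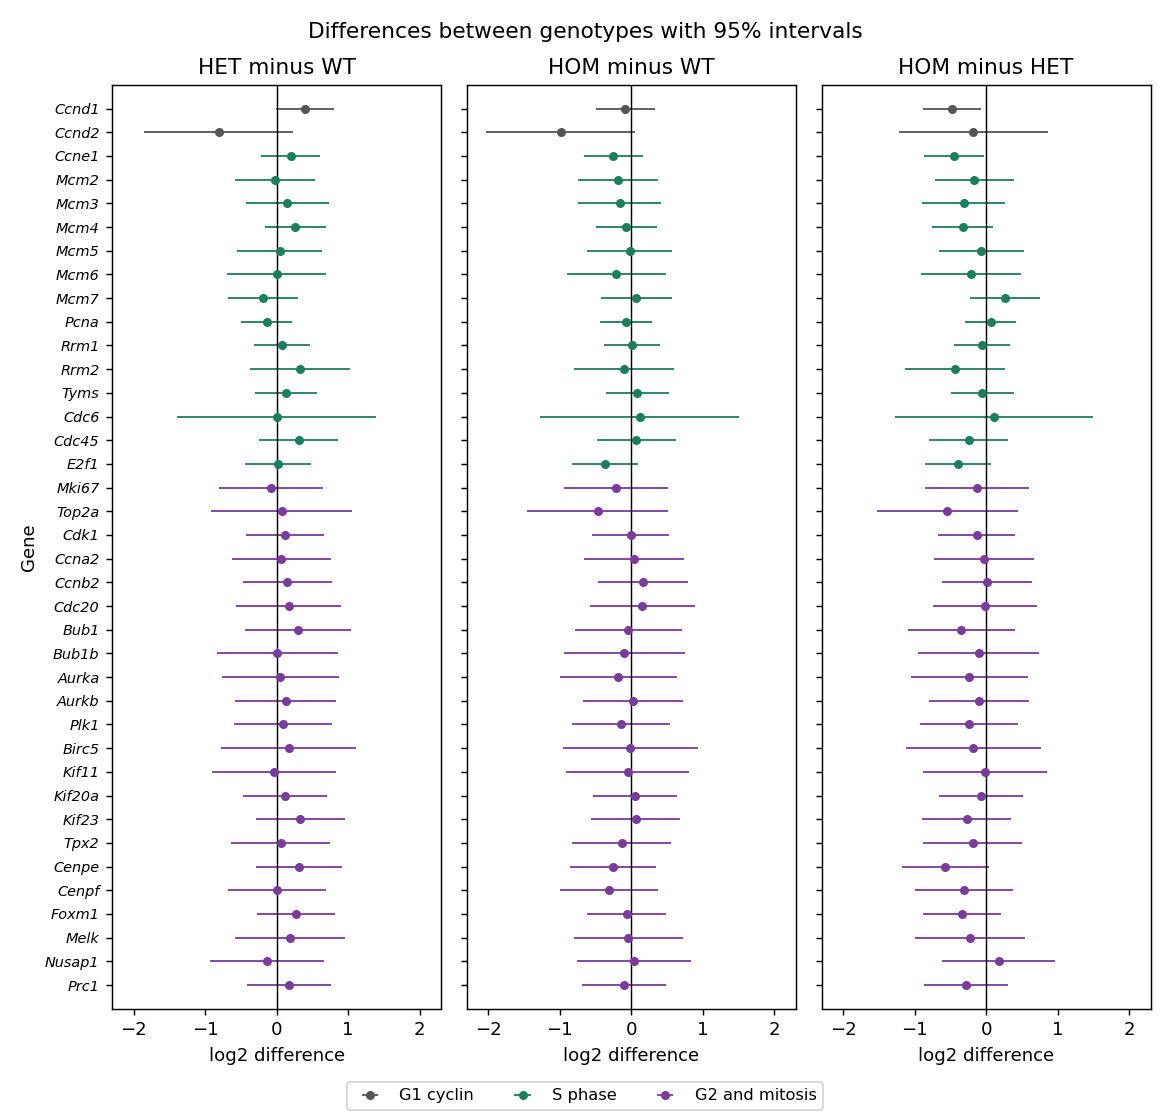
Log2 difference of group means for 38 genes in the 3 comparisons (points) with 95% intervals (lines, not adjusted for the number of genes). The intervals use limma's standard errors and 12 residual degrees of freedom. Intervals of Ccnd1 and Ccne1 exclude 0 in HOM minus HET, and all others cross 0.

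The intervals show what 5 tumors a group could resolve. For Mki67 the 95% interval was -0.81 to 0.64 for HET minus WT, -0.94 to 0.52 for HOM minus WT and -0.86 to 0.60 for HOM minus HET. Cdc6 had the widest intervals of the 38 genes in the plot of differences by gene. A p above the threshold at this precision does not show that the genotypes were alike.

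Regulators of G1 that are not among the 40 genes were read from a list of 17, all of them tested. Of these, 5 were higher in HET than in WT tumors at an unadjusted p of 0.05, beside 4.99% of all tested genes, and none passed the adjusted threshold. E2f4, an E2F factor known mainly as a repressor, was 10.16, 10.25, 9.90, 10.04 and 9.85 in HET 1 to HET 5, against 9.31, 9.59, 9.61, 9.81 and 9.61 in WT 1 to WT 5. Every HET tumor lay above every WT tumor, and the difference was 0.45 with a limma adjusted p of 0.207. E2f7, an atypical E2F that represses E2F targets, was 7.46, 8.50, 7.78, 7.71 and 7.51 in HET 1 to HET 5, against 7.07, 7.13, 6.10, 7.45 and 6.89 in WT 1 to WT 5. These groups did not overlap either, though HET 1 and WT 4 nearly met, and the difference was 0.86 with a limma adjusted p of 0.223. Of all tested genes, 0.534% were higher in HET tumors without overlap.

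E2f4 averaged 9.64 ± 0.12 in HOM tumors, 10.04 ± 0.17 in HET tumors and 9.59 ± 0.18 in WT tumors (SD, n = 5 each). E2f7 averaged 6.99 ± 0.15 in HOM tumors, 7.79 ± 0.42 in HET tumors and 6.93 ± 0.50 in WT tumors. HOM minus WT was 0.06 for both genes, with a limma adjusted p of 1.0. Of the 17 regulators, 5 were lower in HOM than in HET tumors at an unadjusted p of 0.05, beside 3.11% of all tested genes, each with a limma adjusted p of 0.587 or more. They were E2f4, E2f6, E2f7, E2f8 and Cdk6, and E2f4, E2f6 and E2f7 did so without overlap, beside 0.414% of all tested genes. None of the 17 had an r above 0.8 with the mitosis mean, beside 1.32% of all tested genes. At so small a share, that count says little about 17 genes. Their median r was 0.43, beside 0.08 for all tested genes. The 17 ran from -0.11 for Rb1 to 0.76 for Rbl1, and E2f4 had -0.05.

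E2f8, the other atypical E2F and named after its values were seen, was 10.62, 10.65, 9.26, 8.44 and 8.30 in HET 1 to HET 5. It was 7.86, 8.42, 8.47, 8.05 and 7.28 in HOM 1 to HOM 5 and 8.40, 8.26, 7.12, 8.63 and 8.11 in WT 1 to WT 5. HET 1 and HET 2 stood about 2 units above the highest WT tumor, and the other HET tumors lay within 1 unit of it. The same 2 tumors had the highest means of neutrophil markers, 10.48 each, with 13 of 14 markers tested, against 7.42 to 9.37 in the other HET tumors, 6.63 to 8.94 in HOM tumors and 5.96 to 7.46 in WT tumors. HET 2 and HET 1 were also the 2 highest tumors for E2f4, at 10.25 and 10.16, and for Cdk6, at 10.76 and 10.48. For E2f7, HET 2 was the highest tumor, while HET 1 was the lowest of the HET tumors. The part of neutrophils in the values of E2f8, E2f4, Cdk6 and E2f7 was not tested.

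Inhibitors of cyclin-dependent kinases gave no calls by limma among 7 tested genes, beside 0.0140% of all tested genes for HET against WT and 0% for the other comparisons. At an unadjusted p of 0.05, 1 of the 7, Cdkn2d, was higher in HET than in WT tumors, beside 4.99% of all tested genes. None passed in HOM against WT (background 1.70%) or in HOM against HET (background 7.93%). Cdkn2d, which encodes an inhibitor of CDK4 and CDK6, averaged 7.16 ± 0.31 in HET tumors and 6.76 ± 0.16 in WT tumors, a difference of 0.40 with a limma adjusted p of 0.322. Cdkn1a, the p53 target gene for p21, averaged 11.84 ± 0.40 in HOM tumors and 12.22 ± 0.23 in HET tumors, a difference of -0.38 with a limma adjusted p of 0.690. Cdkn1b, the gene for p27, averaged 9.53 ± 0.52 in HOM tumors and 9.26 ± 0.17 in WT tumors, with a limma adjusted p of 1.0. Other replication genes gave no calls among 28 tested and no unadjusted p under 0.05 in any comparison. Of these 28, 13 had an r above 0.8 with the mitosis mean (46.4%), beside 1.32% of all tested genes.

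Anln, a cytokinesis scaffold, was the most different of the 38 other mitosis genes between HOM and HET tumors, at 9.18 ± 0.45 in HOM tumors and 9.90 ± 0.54 in HET tumors (SD, n = 5 each). The difference was -0.72 with a limma adjusted p of 0.587, and against WT tumors HET tumors differed by 0.57 with 0.382. HET 1, with its low epithelial marker mean, was 10.74, against 9.22 to 9.86 in the other HET tumors and 8.74 to 9.68 in HOM tumors. In the HOM to WT comparison the G1 regulator E2f3 differed by -0.41 and the motor gene Kif15 by -0.40, each with a limma adjusted p of 1.0.

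Cdc6 and Top2a departed from their classes in a few tumors. For each gene the difference from the mean of its class in a tumor was set against that gene's median difference, which gave 540 departures. Of these, 5 reached 1 unit, all of them in Cdc6 or Top2a, and the largest in any other gene was 0.96 (Kif23 in WT 1). Cdc6, whose product loads the MCM helicase at origins, was 10.79, 8.50, 8.69, 7.81 and 6.65 in HOM 1 to HOM 5, 8.59, 8.16, 9.24, 7.22 and 8.67 in HET 1 to HET 5, and 8.66, 8.30, 7.23, 8.18 and 9.51 in WT 1 to WT 5. The highest and the lowest value both came from HOM tumors, and the range of 17.7-fold was the widest of the 38 genes. Top2a was 8.73, 10.49, 10.61, 9.58 and 8.73 in HOM 1 to HOM 5, 10.57, 10.22, 10.62, 9.03 and 10.42 in HET 1 to HET 5, and 10.45, 10.35, 9.04, 9.77 and 10.88 in WT 1 to WT 5. In HOM 1, Cdc6 lay 2.70 above what its class gave, or 6.50-fold, while Top2a lay 1.01 below. In WT 5, Cdc6 lay 1.35 above and Top2a 1.26 above, and in HOM 5 the departure of Cdc6 was -1.06.

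Both genes lie on chromosome 11 on the same side of Erbb2, with 18 protein-coding genes between Erbb2 and Cdc6 and 3 between Cdc6 and Top2a in RefSeq's gene order on GRCm38.p6. Their neighbors, named after their values were seen, showed the same tumors. In HOM 1, Thra, Nr1d1, Msl1, Rapgefl1, Wipf2 and Cdc6, which follow each other among the tested genes, were each the highest of the 15 tumors. Msl1 was 2.21, Rapgefl1 3.23, Wipf2 2.41 and Cdc6 2.29 above the median of the 15 tumors there. The next gene, Rara, was 0.23 above its median in HOM 1, and Top2a was 1.62 below (a difference of -1.62). In WT 5, Msl1, Wipf2, Cdc6 and Rara were 1.34, 1.27, 1.01 and 1.0 above their medians, and Top2a, the highest of the 15, was 0.53 above. In HET 5, Psmd3 and Med24 were high at 12.32 and 12.10, while Msl1 was 9.77 and Cdc6 8.67. Psmd3 was highest in WT 4, at 13.00, where Med24 was 9.55, near its median. Erbb2 itself was 10.52 in HOM 1, the second lowest value of the 15. Arrays of RNA do not measure DNA copies, and copy number was not tested.

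**Figure D5:**
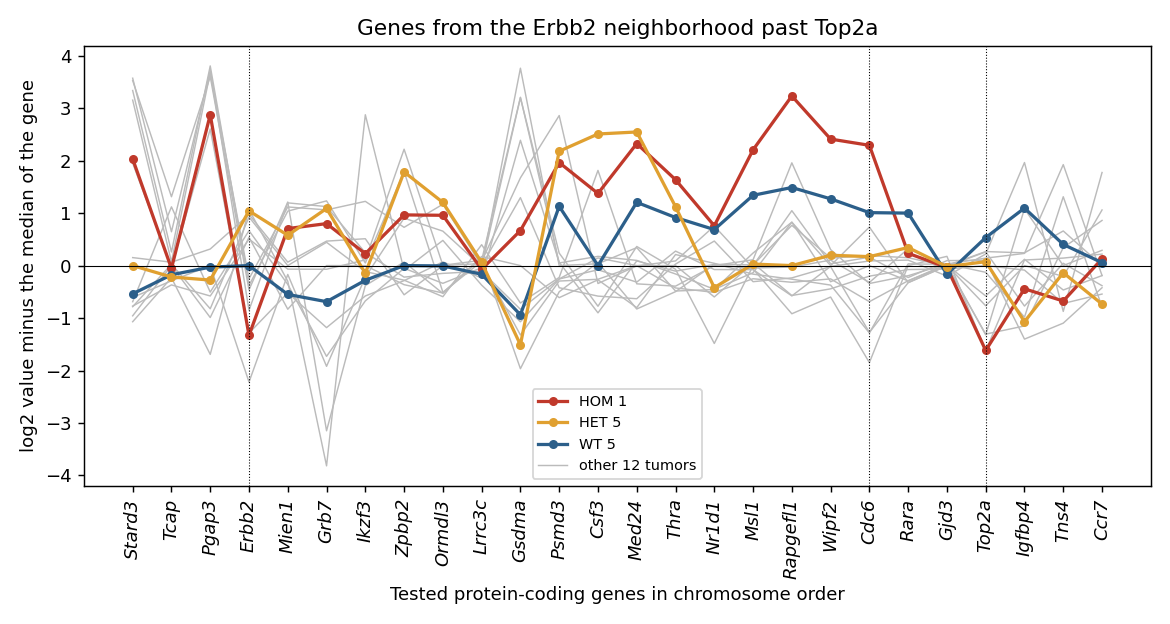
Log2 value minus the median of 15 tumors for 26 tested protein-coding genes in chromosome order from before Erbb2 to past Top2a (x axis, evenly spaced, not to genomic scale), with HOM 1, HET 5 and WT 5 in color and the other 12 tumors in gray. HOM 1 stays high from Psmd3 to Cdc6 and drops at Rara, WT 5 stays high from Psmd3 to Rara except at Csf3, and HET 5 is high from Psmd3 to Thra.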

How the data were processed

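Total RNA of 15 tumors was hybridized to Affymetrix whole-transcript arrays, 1 array per tumor. The authors deposited values for 41345 transcript clusters, which were taken as log2 because they lie between 1.06 and 13.9. Per the submitters' processing notes, Affymetrix Expression Console and Transcriptome Analysis Console were used. No version, background correction or normalization method is stated in these sources, and scanner files were not used. The number of arrays limits the precision.

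Clusters were named from the platform's annotation: 23521 carry exactly 1 symbol, 1814 carry several and are not named, and 16010 are unnamed here. The brightest cluster of a gene was kept, and a gene was tested when it exceeded the array's median on at least 5 arrays (14243 genes). Limma 3.58.1 in R 4.3.3 fitted the 3 genotypes together (12 residual degrees of freedom), with Benjamini-Hochberg adjustment over all tested genes, and was tested on simulated data. Mki67 and Ccnd1 also had two-sided exact permutation tests. Named in every comparison were Mki67, Top2a, Cdk1, Foxm1, Mcm2, Pcna, Rrm2, E2f1, Ccne1, Ccnd1 and Ccnd2. Further names were the 5 genes with the smallest p, the extremes of range and likeness, and the smallest p of the other lists. The genes and lists were chosen with earlier results of these data known. Alternatives were the filter, renewed quantile or median scaling, averaging of clusters, the variance model, fits of 2 genotypes, marker covariates and leaving out tumors.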

Additional observations from a re-analysis of the deposited data

Results flagged for a closer look

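In groups of 5 tumors, 1 tumor's gap to the next was compared with the range of its group for 120 groups of values, those of the 38 genes and the class means among them. It passed the limit for a wide gap in 4 of the 120 groups. Chance gives about 1 in 20, so the share flagged was no larger than chance gives. Top2a was 9.03 in HET 4, against 10.22 to 10.62 in the other HET tumors. Cdc45 was 6.58 in HOM 5, against 7.25 to 7.47 in the other HOM tumors, and 6.50 in WT 3, against 7.23 to 7.36 in the other WT tumors. Tyms, the gene of thymidylate synthase, was 7.80 in WT 3, against 8.62 to 8.83 in the other WT tumors. HOM 5, WT 3 and HET 4 are also the 3 tumors with the lowest means of S phase and of mitosis genes.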

How the results depend on the processing

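No paired analysis was possible because the tumor numbers follow accession order and no label ties tumors of different genotypes together. In limma, none of the 38 genes passed the adjusted threshold under any alternative. Over all genes, the 2 calls of HET against WT became 48 without HET 3, 18 without HET 5, 10 without HET 1 and HET 3, and 0 with a filter at the 75th percentile or with array weights. The count was 1 under renewed quantile normalization, with marker covariates, in the fit of the 2 genotypes, and without WT 1, WT 2, WT 3, WT 4, HET 1 or HET 2. The counts of 0 became 4 for HOM against WT without HOM 5 and WT 5. For HOM against HET they became 6 without that pair, 3 without HET 5, and 1 without HET 3 or without HET 1 and HET 3. The exact test of Ccnd1 for HOM minus HET passed under renewed quantile normalization (-0.49, p = 0.00794, adjusted 0.0476), while other alternatives gave -0.55 to -0.37. That adjustment covers only the 6 exact tests and not the choice of Ccnd1 with earlier results known. By limma, the smallest adjusted p of this difference under any alternative was 0.321.

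The sign of the Mki67 difference turned. Leaving out 1 tumor gave -0.27 to 0.0741 for HET minus WT (above 0 without WT 1, WT 2 or HET 4), -0.40 to 0.0039 for HOM minus WT (above 0 without HOM 5) and -0.32 to 0.0882 for HOM minus HET (above 0 without HET 3 or HOM 5). It was 0.28 for HET minus WT with marker covariates, and for HOM minus HET 0.0882 without HOM 5 and WT 5 and 0.13 without HET 1 and HET 3. Ccnd1 for HOM minus WT ran from -0.24 to 0.0073, the last without WT 4. Cdc45 for HET minus WT was -0.0099 without HET 1 and HET 3. Leaving out 1 tumor moved the median of mitosis genes between -0.10 and 0.30 for HET minus WT, -0.25 and 0.15 for HOM minus WT, and -0.37 and 0.02 for HOM minus HET. The causes were not tested. Signal over background was not examined, since scanner files were not used.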

Other observations

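Genes outside the lists that followed the mitosis mean, named after their values were seen, included Cdca2, Cdca5, Arhgap19 and Depdc1a, with r of 0.97, 0.96, 0.96 and 0.96 over the 15 tumors. Cdca2 and Cdca5 encode chromosome proteins of cell division. At the other end, Gsto2 had -0.86, 4833419F23Rik -0.83, Vsig2 -0.83, Avpr1a -0.82 and Tmem119 -0.81. Zfand3 followed with -0.79 and Trem2, a receptor of macrophages, with -0.78. Trem2 was 9.39 in HOM 5 and 9.66 in HET 4, against 7.85 in HET 3.

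A run of 3 genes next to each other near Erbb2 set apart the 2 tumors with the lowest mitosis means. Fbxl20, Med1 and Cdk12, seen after the values were known, were 12.06, 13.33 and 12 in HOM 5 and 11.99, 13.29 and 11.90 in WT 3. No other tumor exceeded 9.25 for Fbxl20, 10.67 for Med1 or 8.96 for Cdk12. Cdk12 encodes a kinase of RNA polymerase II and Med1 a subunit of Mediator. With 2 such tumors in different genotypes, no comparison was made.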
